A study of Mus musculus with 24 samples.

Results

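The RNA of 6 zinc-handling genes was measured in mouse embryonic fibroblasts (MEFs), which are cultured connective tissue cells of the embryonic body: the metallothioneins Mt1 and Mt2, the zinc sensor Mtf1, the zinc exporter Slc30a1 and the zinc importers Slc39a10 and Slc39a14. They were listed by gene name, and the list was made with earlier results of these data known. All 6 of the 6 genes were found among the 45706 genes of each library, and all 6 were among the 15221 genes with enough reads to be tested. The 24 RNA-seq libraries fall into 8 groups of 3. Wild-type cells (GR wt/wt) and cells homozygous for GR Zn/Zn, an allele that changes a zinc finger through which the glucocorticoid receptor (GR) binds DNA, were each given 4 treatments: vehicle, Dex, LPS, or both agents. Dex is dexamethasone, a synthetic glucocorticoid, given at 1 µM for 16 h in ethanol, and the vehicle groups had ethanol for 16 h. LPS is bacterial lipopolysaccharide, which triggers innate immune signalling, and was given at 100 ng/µl for 6 h on top of vehicle or Dex. All groups came from male C57BL/6 embryos of day 13.5 whose head and inner organs had been removed, and the cells were cultured for 7 days in medium with serum. No group received zinc, and the name Zn/Zn refers to the receptor. Whether replicates came from different embryos or dishes is not in the labels. The p-values therefore rest on a spread between libraries that may be only technical, and the effect of genotype cannot be told apart from that of the embryos used.

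Zinc is held in cells at a level that proteins can use without harm by binding, export and import. Metallothioneins are small, cysteine-rich proteins that bind zinc and copper, and in liver and many cultured cells their genes are classical targets of metals, glucocorticoids and inflammatory signals. MTF-1, the product of Mtf1, binds zinc and then the metal response elements (MREs) in the promoters of the metallothionein genes and of Slc30a1. The SLC30 family (ZnT) moves zinc out of the cytosol and the SLC39 family (ZIP) moves it in, and Slc39a14 (ZIP14) is known as an importer that inflammation raises in liver.

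Mt1 (ENSMUSG00000031765) lies on GRCm38 chromosome 8 at 94179082-94180327 on the plus strand. Mt2 (ENSMUSG00000031762) lies at 94172664-94173568 on the same strand, and 5513 bases separate its end from the start of Mt1. The promoters of these neighbours and of Slc30a1 are shown because they hold the letters of MREs, the sites by which zinc acts on these genes. Each runs 5′ to 3′ from 250 bases before the RefSeq start site through the first 30 bases of the transcript, from the GRCm38.p6 promoter table of RefSeq. Capitals mark matches to TGCACNC or TGCGCNC on either strand.
Mt1 promoter, chr8:94178839-94179118, plus strand: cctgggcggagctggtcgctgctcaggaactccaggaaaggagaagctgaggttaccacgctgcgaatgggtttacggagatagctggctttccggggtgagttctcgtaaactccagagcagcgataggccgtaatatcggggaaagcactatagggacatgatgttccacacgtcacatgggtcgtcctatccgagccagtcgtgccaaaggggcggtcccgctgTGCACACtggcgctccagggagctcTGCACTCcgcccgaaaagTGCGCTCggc
Mt2 promoter, chr8:94172368-94172647, plus strand: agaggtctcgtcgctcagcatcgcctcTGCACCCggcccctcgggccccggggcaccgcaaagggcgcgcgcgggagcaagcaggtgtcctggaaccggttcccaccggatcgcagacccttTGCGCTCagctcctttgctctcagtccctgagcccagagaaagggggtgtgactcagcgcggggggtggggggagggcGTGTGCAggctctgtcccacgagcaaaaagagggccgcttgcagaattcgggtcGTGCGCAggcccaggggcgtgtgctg
Slc30a1 promoter, chr1:191906531-191906810, plus strand: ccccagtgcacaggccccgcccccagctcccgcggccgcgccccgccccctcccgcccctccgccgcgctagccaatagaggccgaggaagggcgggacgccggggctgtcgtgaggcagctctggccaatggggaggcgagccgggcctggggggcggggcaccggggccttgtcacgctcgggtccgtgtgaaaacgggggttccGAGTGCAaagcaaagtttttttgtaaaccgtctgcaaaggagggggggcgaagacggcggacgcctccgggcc

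The search covered the whole RefSeq window of 300 bases, which runs to 50 bases past the start, and 5 of the 6 genes had an entry. The Mt1 window held 3 matches, at -23, 2 and 20 from the start base counted as 0. The Mt2 window held 4, at -223, -128, -50 and 4, of which the last pair lies on the opposite strand. The Slc30a1 window held 2, both on the opposite strand, at -43 and, past the end of the printed stretch, at 30. The single window of Mtf1 and both windows of Slc39a10 held none. Of all 32841 promoters of the same length, 25.7% had at least 1 match, 7.12% at least 2, 1.97% at least 3 and 0.518% at least 4. TGCACNC was in 12.6% and TGCGCNC in 15.4%, each counted whether or not the other was present. The palindromic glucocorticoid response element, AGAACA and its inverted repeat spaced by 3 bases, was in none of these windows and in 3 of all promoters (0.00913%). Its half-site AGAACA was in the Mtf1 window alone, at -223, and in 19.0% of all promoters. A match describes letters and is no measured binding site, and positions and counts depend on the start that RefSeq gives. For Mt1 that start is base 94179089, and shorter annotated Mt1 transcripts start downstream of it. For Mt2 it is base 94172618, before the GENCODE start at 94172664. Windows at other starts, and sequence farther from these genes, were not searched.

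**Figure D1:**
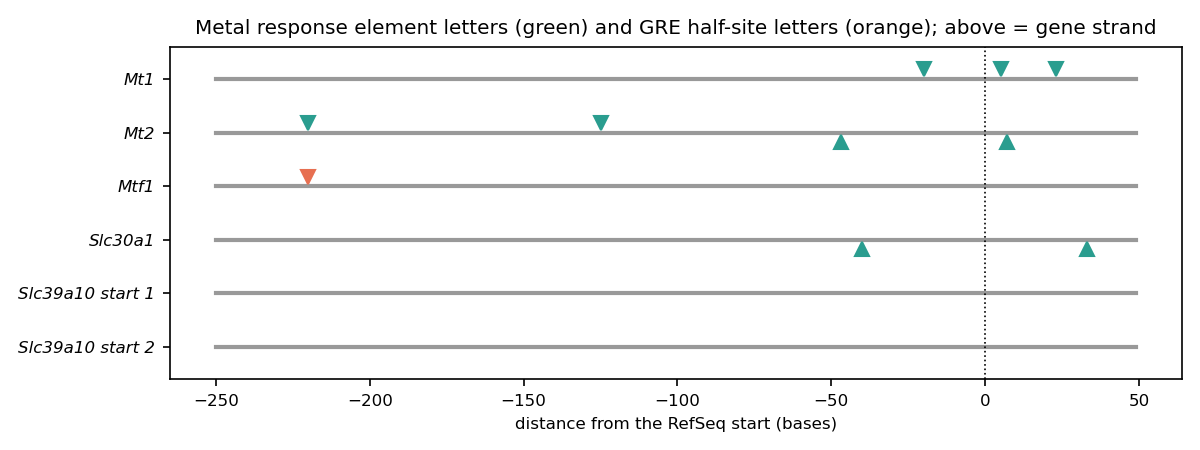
Positions of motif matches in the RefSeq promoter windows, with distance from the start site in bases on the x axis and 1 line per promoter. Triangles mark the middle of a match, above the line on the gene's strand and below it on the other. Mt2 has 4 MRE matches, Mt1 has 3 and Slc30a1 has 2, while Mtf1 and Slc39a10 have none.

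Levels are CPM, the counts of a gene for every 1e06 counted reads, with TMM scaling. Calls are from edgeR's quasi-likelihood test, at p below 0.05 after Benjamini-Hochberg adjustment for the 15221 genes. Fold changes are on the log2 scale with their standard error (SE). The libraries held 18.9 to 25.5 M counted reads in 21 cases and 43.9 to 58.0 M in the 3 with later library numbers: wild type Dex with LPS replicate 3, mutant vehicle replicate 1 and mutant LPS replicate 2. A further 2 libraries, wild type Dex with LPS replicate 1 and mutant Dex with LPS replicate 2, deviated from their groups by gene length, with rank correlations of deviation with exon length of -0.476 and -0.486, so that short genes stood higher in them. Replicate pairs with one of these 5 libraries differed by 8.78 to 62.6 times the sampling variance and the other 15 pairs by 1.56 to 5.06 times. Fibroblast markers summed to 25734 to 34992 CPM. Liver markers ranged from 0.590 to 209.5 CPM in sum, endothelium markers from 4.70 to 23.8 CPM and epithelium markers from 2.76 to 12.2 CPM. Macrophage and leukocyte markers (8 genes) summed to 60.4 to 83.4 CPM in wild type and to 148 to 194 CPM in the mutant, with no marker at 0 in a whole group, and their part in the genotype differences was not tested. In bulk RNA, fewer cells of a type and less RNA per cell cannot be told apart.

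Dex alone raised both metallothioneins in wild-type cells and neither was called in the mutant. Mt2 was at 28.6, 29.2 and 30.4 CPM in the wild-type vehicle libraries and at 316, 336 and 309 CPM with Dex. Mt1 was at 52.3, 56.2 and 54.0 CPM with vehicle and at 215, 237 and 212 CPM with Dex. The groups lie far apart for both genes, and the 3 libraries within each group lie close together. Mt2 rose by a log2 change of 3.44 ± 0.21 (SE, n = 3 per group, edgeR adjusted p = 1.93e-10), a 10.9-fold difference, and was the gene with rank 9 by size among those that rose. Mt1 rose by 2.03 ± 0.23 (adjusted p = 1.95e-06), 4.08-fold with a 95% interval of 2.92 to 5.70. With Slc39a14, described below, 3 of the 6 genes were called, all higher, where 13.2% of all tested genes were called, 7.92% higher and 5.24% lower. Sums of markers of other cells also differed between Dex and vehicle in wild type. Liver markers summed to 24.2 to 27.4 against 73.4 to 158.5 CPM (0 of 9 tested called), and macrophage and leukocyte markers to 60.4 to 69.2 against 81.1 to 83.4 CPM (4 of 8 called lower). Epithelium markers summed to 7.19 to 9.29 against 10.6 to 12.2 CPM (1 of 2 tested called lower). Endothelium markers stood higher, at 21.4 to 23.8 against 17.6 to 19.7 CPM (0 of 3 tested called). The part of all these markers in the Dex changes was not tested.

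In the mutant, Mt2 was at 20.4, 38.7 and 30.6 CPM with vehicle and at 34.1, 32.8 and 37.0 CPM with Dex. Mt1 was at 31.5, 58.4 and 52.2 CPM with vehicle and at 58.1, 57.4 and 67.0 CPM with Dex. The groups overlap for both genes, and the lowest vehicle value of each is that of replicate 1, a later-numbered library with 187 CPM of liver markers against 24.9 and 28.8 CPM in the other two. The part of liver RNA in these values was not tested. The log2 change was 0.24 for Mt2 (95% interval of the fold 0.871 to 1.59, edgeR adjusted p = 0.769) and 0.38 for Mt1 (0.933 to 1.81, adjusted p = 0.691). Without that library these became 0.01 and 0.14. None of the 6 genes was called by edgeR or by DESeq2, and none had an unadjusted p below 0.05. Over all genes edgeR called 0 (0%), with 1109 at an unadjusted p below 0.05, and DESeq2 called 3.

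The difference between genotypes in the Dex response was itself past the threshold for both. It was -3.21 ± 0.29 on the log2 scale for Mt2 (edgeR adjusted p = 1.86e-07) and -1.65 ± 0.32 for Mt1 (adjusted p = 0.00212), with Dex raising RNA less in the mutant. With Slc39a14, 3 of the 6 genes were called, all in this direction, beside 6.99% of all genes called and 4.40% called lower. Without the 5 libraries that stood apart the values were -3.43 and -1.88. These differences use the same libraries as the response within each genotype. With vehicle alone, the genotypes did not differ past the threshold in Mt2 (log2 -0.00, adjusted p = 0.999) or in Mt1 (log2 -0.21, adjusted p = 0.618). Their 95% intervals, mutant over wild type, were 0.749 to 1.33 and 0.618 to 1.21. None of the 6 genes was called there by edgeR or DESeq2, or reached an unadjusted p below 0.05, while 18.8% of all genes were called. In the vehicle groups macrophage and leukocyte markers summed to 182 to 194 CPM in the mutant against 81.1 to 83.4 CPM in wild type (7 of 8 called higher). Endothelium markers summed to 9.24 to 11.1 against 17.6 to 19.7 CPM (1 of 3 tested called lower, Kdr). Epithelium markers summed to 3.94 to 4.14 against 10.6 to 12.2 CPM (1 of 2 tested called lower, Krt18). Of 10 fibroblast markers 6 were called higher in the mutant, among them Pdgfra (2.20), and 1 lower, Fn1 (-0.66). The part of these markers in the genotype differences was not tested.

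**Figure D2:**
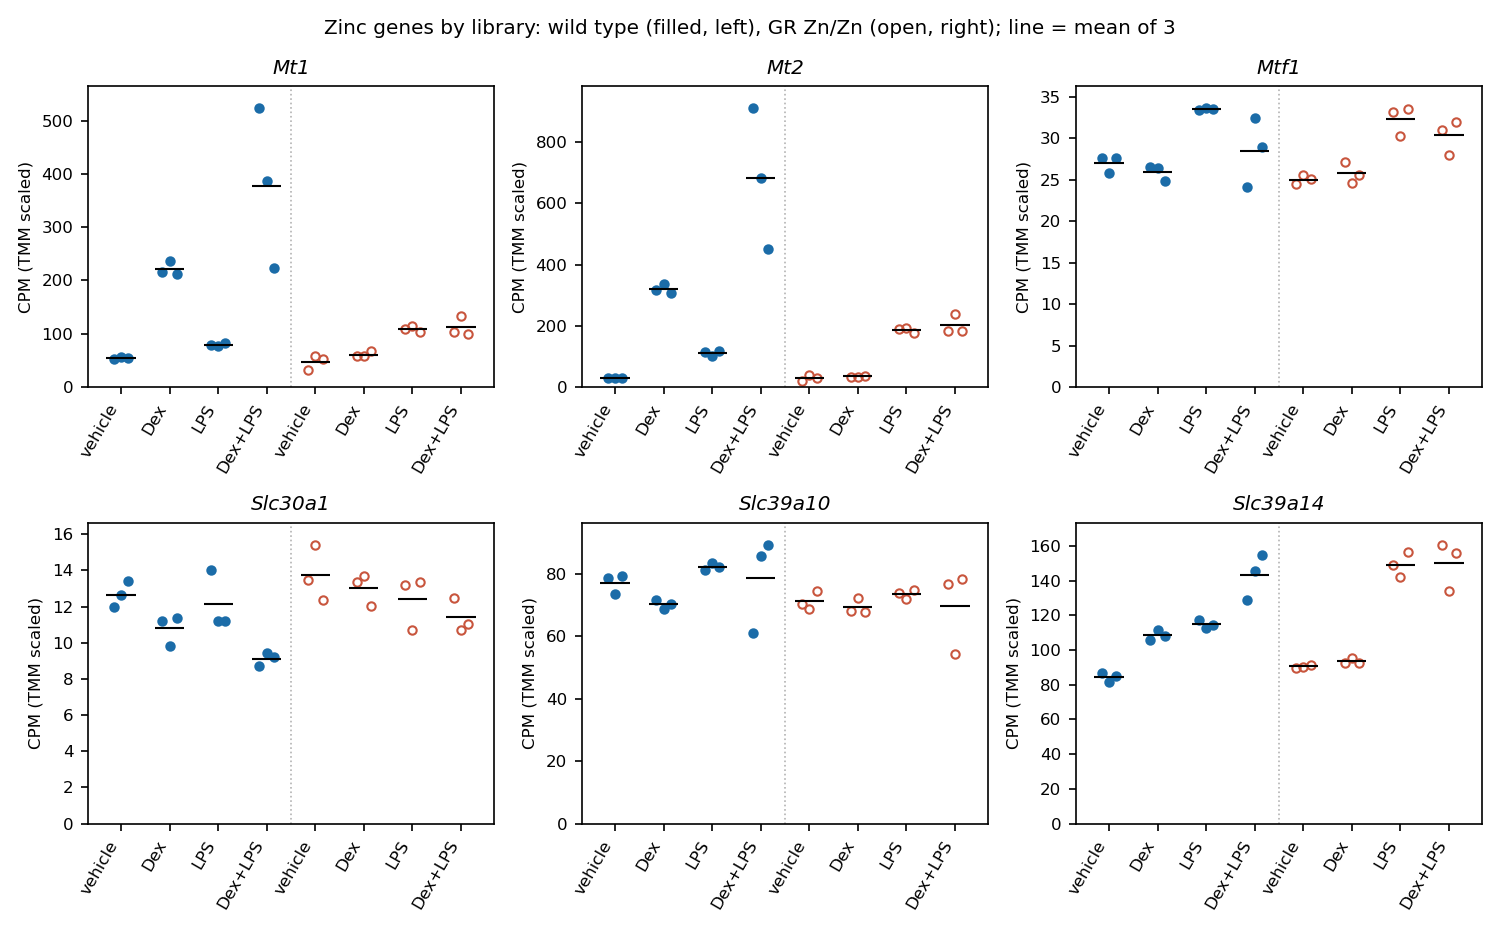
CPM of the 6 genes in each of the 24 libraries on linear axes that start at 0, 1 panel per gene, with filled points for wild-type and open points for mutant libraries and lines for group means. Mt1 and Mt2 stand highest in wild type with Dex and with Dex and LPS, and the 3 wild-type Dex with LPS libraries spread from 452 to 911 CPM for Mt2.

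LPS raised Mt2 in both genotypes. In wild type Mt2 was at 113, 102 and 118 CPM with LPS, and in the mutant at 189, 194 and 177 CPM, each group above every vehicle library of its genotype. The log2 change was 1.92 ± 0.21 in wild type (edgeR adjusted p = 3.61e-07), 3.78-fold, and 2.67 ± 0.21 in the mutant (adjusted p = 1.73e-09), 6.34-fold. Mt1 was at 78.6, 76.3 and 83.0 CPM with LPS in wild type and at 110, 114 and 103 CPM in the mutant. In the mutant Mt1 rose by 1.22 ± 0.23 (adjusted p = 0.000242). In wild type its log2 change was 0.55 ± 0.23 (adjusted p = 0.0871) although the groups do not overlap. The adjusted p was 0.00144 without the 3 later-numbered libraries, 3.52e-06 without the 5 that stood apart and 4.70e-19 with only the groups compared in the fit. In sum, macrophage and leukocyte markers stood lower with LPS than with vehicle, at 72.6 to 73.3 CPM in wild type and 148 to 158 CPM in the mutant. Singly they were split: of 8, 2 were called higher and 3 lower in wild type, and 2 higher and 4 lower in the mutant. Lyz2 had the highest median of the 8, at 66.8 CPM. Liver markers summed to 0.707 to 30.9 against 73.4 to 158.5 CPM in wild type (1 of 9 tested called lower). In the mutant they overlapped, at 21.0 to 128 against 24.9 to 187 CPM. Endothelium markers summed to 10.5 to 12.2 against 17.6 to 19.7 CPM in wild type (2 of 3 tested called lower, 1 higher). In the mutant they summed to 4.70 to 5.77 against 9.24 to 11.1 CPM (2 lower). Epithelium markers also stood lower in sum in both genotypes. The part of all these markers in the LPS changes was not tested.

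The larger changes in the mutant were not called as a genotype difference by edgeR or DESeq2. The difference was 0.75 ± 0.29 for Mt2 (edgeR adjusted p = 0.409) and 0.67 ± 0.32 for Mt1 (adjusted p = 0.567). Without mutant vehicle replicate 1 it was 0.50 and 0.42. Among the 6 genes 3 had an unadjusted p below 0.05 for this difference (Mt1, Mt2 and Slc39a14) and 0 were called, beside 0.539% of all genes. For LPS itself, 3 of the 6 were called in wild type (Mt2, Mtf1, Slc39a14) and 4 in the mutant (these and Mt1), all higher. The background was 26.4% of genes called in wild type, with 14.0% higher and 12.4% lower, and 36.7% in the mutant, with 19.0% higher.

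Dex given with LPS raised both metallothioneins again in wild type, to the highest levels of the study. Mt2 reached 911, 684 and 452 CPM and Mt1 523, 387 and 223 CPM, all above the LPS libraries. These 3 libraries spread over more CPM than any other group and take the same order in both genes. Against LPS alone, Mt2 rose by 2.62 ± 0.20 (edgeR adjusted p = 3.52e-09), 6.13-fold, and Mt1 by 2.25 ± 0.23 (adjusted p = 2.90e-07), 4.75-fold. The highest library, replicate 1, is one of the pair in which short genes stood higher, and the principal transcripts of Mt1 and Mt2 measure 549 and 511 bases. The lowest, replicate 3, is the later-numbered one, with 209.5 CPM of liver markers against 1.16 and 48.9 CPM in the others. Without replicate 1 the changes were 2.35 for Mt2 and 1.94 for Mt1, without replicate 3 they were 2.84 and 2.52, and all 4 stayed past the threshold.

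In the mutant, Mt2 was at 182, 240 and 183 CPM with Dex and LPS and Mt1 at 103, 134 and 99.1 CPM, overlapping the LPS libraries. Replicate 2, the other library with raised short genes, was the highest for both. The log2 change by Dex under LPS was 0.11 for Mt2 (95% interval of the fold 0.819 to 1.42, edgeR adjusted p = 0.971) and 0.04 for Mt1 (0.744 to 1.42, adjusted p = 0.997). None of the 6 genes was called by edgeR or DESeq2 or had an unadjusted p below 0.05, beside 0.00657% of all genes called. The genotype difference was -2.51 ± 0.27 for Mt2 (adjusted p = 1.26e-06) and -2.21 ± 0.32 for Mt1 (adjusted p = 4.55e-05). For this difference 3 of the 6 genes were called lower, with Slc39a14 the third, beside 10.4% of all genes called and 5.03% called lower. In wild type 5 of the 6 were called for Dex under LPS, 3 higher and 2 lower, beside 21.0% of genes called, 10.5% higher and 10.6% lower.

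Whether LPS changed the Dex response in wild type was tested as an interaction. For Mt1 it was 0.22 ± 0.32 (edgeR adjusted p = 0.877), with a 95% interval of the ratio of folds of 0.737 to 1.84. For Mt2 it was -0.83 ± 0.28 (adjusted p = 0.207). It was called for Mt2 without wild type Dex with LPS replicate 1 (-1.09, edgeR adjusted p = 0.0369). Without the 5 libraries, which left wild type Dex with LPS replicate 2 alone in its group, it was -0.83 for Mt2. Of the 6 genes 0 were called for this interaction by edgeR and 0 by DESeq2, 1 had an unadjusted p below 0.05 (Mt2), and 1.56% of all genes were called.

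**Figure D3:**
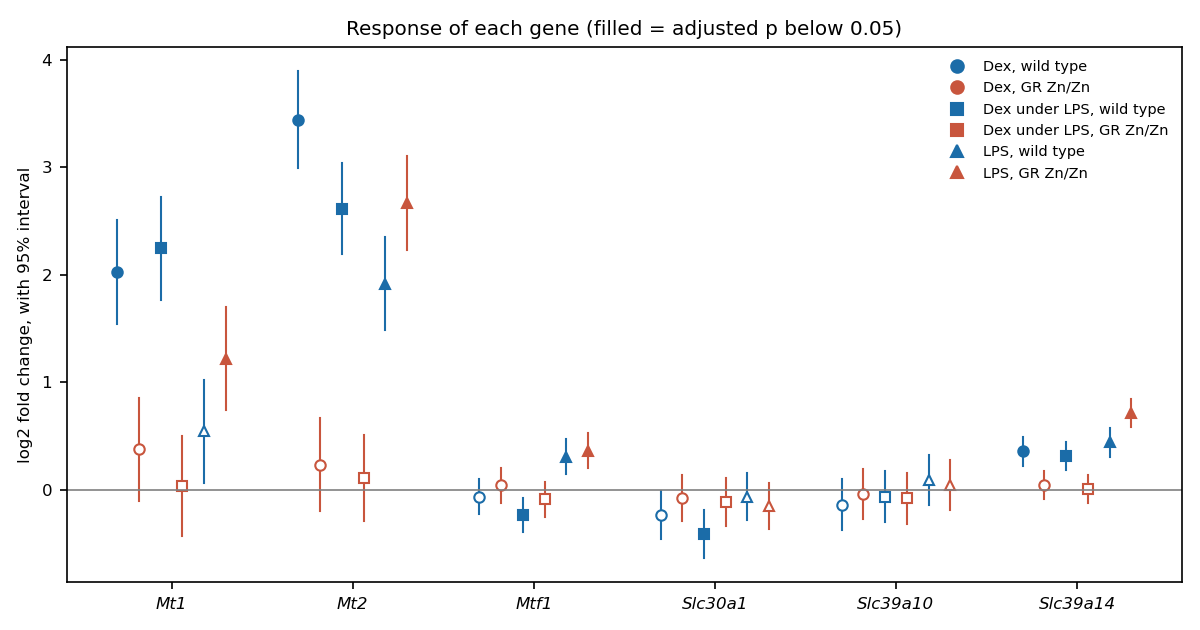
Log2 fold changes of the 6 genes on the y axis for Dex, Dex under LPS and LPS in wild type and mutant, with 95% intervals and filled symbols for called changes. The wild-type Dex values of Mt1 and Mt2 lie at 2.03 and 3.44, and the mutant values at 0.38 and 0.24 have intervals that include 0.

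From lowest to highest mean, Mt2 RNA was ordered as wild-type vehicle, mutant vehicle, mutant Dex, wild-type LPS, mutant LPS, mutant Dex with LPS, wild-type Dex and wild-type Dex with LPS. The first 3 of these overlap from one to the next, as do both mutant LPS groups. Mt1 had the same order except that mutant vehicle came before wild-type vehicle, and its 2 highest groups overlap.

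The metallothioneins did not move in a fixed proportion. Per length of the principal transcript, Mt1 RNA stood above Mt2 RNA with vehicle, at 98.7 against 57.5 CPM per kilobase in wild type. The ratio of Mt2 to Mt1 on this per-length scale was 0.583 ± 0.024 (SD, n = 3) in wild type with vehicle and 0.679 ± 0.043 in the mutant. It was 1.55 ± 0.029 with Dex in wild type and 0.612 ± 0.018 with Dex in the mutant. With LPS it was 1.51 ± 0.058 in wild type and 1.84 ± 0.0085 in the mutant. Dex with LPS gave 1.99 ± 0.17 in wild type and 1.93 ± 0.043 in the mutant. The vehicle libraries of both genotypes and the mutant Dex libraries thus sit below 1 and all others above it. Of 7 comparisons of the log2 ratio, 6 had groups that do not overlap, each with an exact two-sided permutation p = 0.1, the smallest that 3 against 3 libraries can give (0.117 adjusted over the 7). Wild-type LPS and wild-type Dex overlapped (exact permutation p = 0.3). Of the 5 libraries that stood apart, wild type Dex with LPS replicate 3 stood above its group in this ratio. It was at 2.18, against 1.87 and 1.90 for replicates 1 and 2. Mutant vehicle replicate 1, mutant LPS replicate 2 and mutant Dex with LPS replicate 2 lay near their groups, at 0.696, 1.83 and 1.92.

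**Figure D4:**
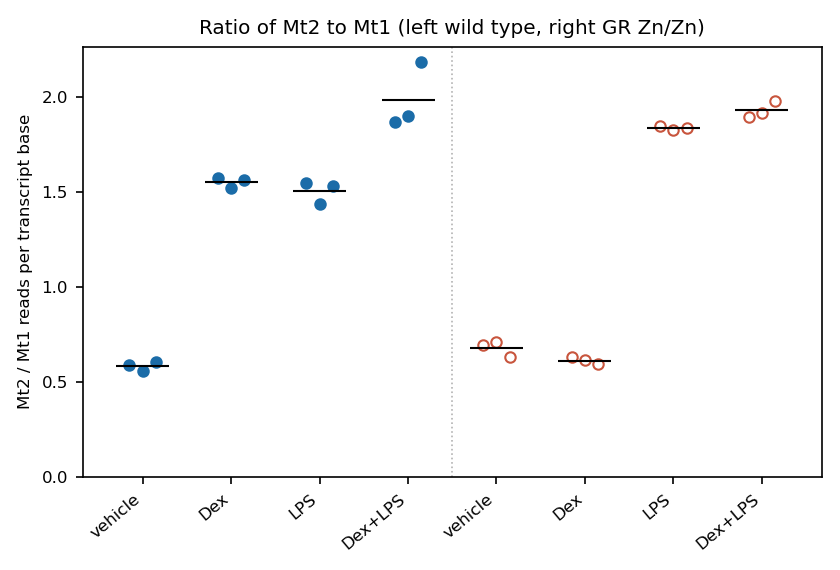
Ratio of Mt2 to Mt1 per transcript length in each library, by group, with lines for group means and an axis that starts at 0. Vehicle libraries and mutant Dex libraries lie between 0.557 and 0.712, and the rest lie between 1.44 and 2.18.

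No reads of the other metallothionein genes were seen at a level that allowed a test. Mt3, known from brain, reached at most 0.806 CPM and Mt4, known from stratified epithelium, at most 0.578 CPM, where a count of 0 allows up to 0.0518 to 0.159 CPM depending on the library. In wild type with Dex and with Dex and LPS, Mt3 had means of 0.300 and 0.645 CPM and Mt4 of 0.399 and 0.440 CPM. The other groups had means of at most 0.127 CPM for Mt3 and 0.0317 CPM for Mt4, and these differences were not tested. Mt1 and Mt2 had at least 1102 and 602 reads in every library. None of the stretches of 50 bases of Mt1 transcripts occurs in another gene. Of those of Mt2, 254 of 554 occur in its antisense gene Gm45774, which the strand of the counted reads tells apart.

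Mtf1 (ENSMUSG00000028890, chromosome 4, 124802104-124849800, plus strand), which encodes the zinc-sensing activator of these genes, changed little. It was at 27.7, 25.8 and 27.6 CPM with vehicle and at 26.5, 26.4 and 24.9 CPM with Dex in wild type, and these overlap (log2 -0.06 ± 0.08, edgeR adjusted p = 0.752). LPS brought it to 33.4, 33.6 and 33.5 CPM in wild type, above every vehicle library, a rise of 0.31 ± 0.08 (adjusted p = 0.00476). Mutant libraries were at 24.5, 25.5 and 25.1 CPM with vehicle and at 33.1, 30.3 and 33.5 CPM with LPS, a rise of 0.37 ± 0.08 (adjusted p = 0.000641). The genotypes did not differ past the threshold in this (0.06, adjusted p = 0.946). With Dex and LPS the wild-type libraries were at 24.1, 32.5 and 29.0 CPM, a fall of 0.23 ± 0.08 against LPS (adjusted p = 0.0363). That call rested on replicate 1: without it the change was -0.13 (edgeR adjusted p = 0.201). Without the 5 libraries, which left replicate 2 alone in its group, the change was -0.06. The call was also lost without the filter on low counts, with only the groups compared, and without each LPS replicate in turn.

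Slc30a1 (ENSMUSG00000037434, chromosome 1, 191906767-191913247, plus strand) encodes ZnT1, the zinc exporter of the cell surface. Its RNA was the lowest of the 6 per length, at 2.41 CPM per kilobase in wild type with vehicle against 3.54 for Mtf1. In wild type it was at 11.97, 12.6 and 13.4 CPM with vehicle and at 11.2, 9.83 and 11.4 CPM with Dex. The Dex libraries lie below the vehicle libraries without being called (log2 -0.23 ± 0.11, edgeR adjusted p = 0.194). The adjusted p was 0.0459 without the 5 libraries and 0.0187 with only the groups compared. With LPS the libraries were at 14.0, 11.2 and 11.2 CPM, and with Dex and LPS at 8.72, 9.40 and 9.21 CPM, the lowest group of the 8. Slc30a1 fell by 0.41 ± 0.11 under LPS (adjusted p = 0.00741). Without wild-type LPS replicate 1 the change was -0.30 (adjusted p = 0.0705), and with only the groups compared it was -0.39 (adjusted p = 0.0687). In the mutant the 12 libraries ranged from 10.7 to 15.4 CPM, and no comparison was called. The genotype difference of Dex under LPS was 0.30 ± 0.15, with a 95% interval of the ratio of folds of 0.988 to 1.53.

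Slc39a14 (ENSMUSG00000022094, chromosome 14, 70303469-70351425, minus strand), the ZIP14 importer of zinc and iron, was raised by Dex in wild type and by LPS in both genotypes. It was at 86.7, 81.8 and 84.8 CPM with vehicle, at 106, 111 and 108 CPM with Dex, at 117, 113 and 115 CPM with LPS and at 129, 145 and 155 CPM with both in wild type. Each of these groups lies above the one before it, with no overlap. Dex raised it by 0.36 ± 0.06 (edgeR adjusted p = 0.000270), 1.28-fold, and LPS by 0.44 ± 0.06 (adjusted p = 1.01e-05), 1.36-fold. Dex under LPS raised it by 0.32 ± 0.06 (adjusted p = 0.000646).

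In the mutant Slc39a14 was at 89.8, 90.4 and 91.4 CPM with vehicle and at 92.7, 95.6 and 92.8 CPM with Dex. The Dex libraries lie just above the vehicle libraries, and the change was not called (0.05 ± 0.06, edgeR adjusted p = 0.838, 95% interval of the fold 0.945 to 1.13). LPS brought it to 149, 142 and 156 CPM, a rise of 0.72 ± 0.06 (adjusted p = 3.88e-09), and Dex with LPS left it at 161, 134 and 156 CPM (0.01, adjusted p = 0.997). The genotype difference of the Dex response was -0.31 ± 0.09 (adjusted p = 0.0365), and that of Dex under LPS was -0.31 ± 0.09 (adjusted p = 0.0266). The former was lost when any 1 of the 12 libraries was left out, with adjusted p from 0.0540 to 0.102, and the latter in 9 of 12 such cases, with adjusted p up to 0.113. Without the 5 libraries that stood apart, the former was called at edgeR adjusted p = 8.59e-06. That setting left wild type Dex with LPS replicate 2 alone in its group, so its result for the latter is not given. The LPS response was 0.28 ± 0.09 larger in the mutant (adjusted p = 0.274), and this was called without the 5 libraries (0.29, adjusted p = 0.000318) and with only the groups compared (0.26, adjusted p = 0.0483).

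Slc39a10 (ENSMUSG00000025986, chromosome 1, 46807544-46892852, minus strand), the ZIP10 importer of the cell surface, was not called in any of the 11 comparisons. Its 24 libraries ranged from 54.1 to 89.2 CPM. The lowest were wild type Dex with LPS replicate 1 at 60.9 CPM and mutant Dex with LPS replicate 2 at 54.1 CPM, the pair in which long genes stood lower, and the remaining libraries were at 67.7 CPM or above. In wild type it was at 78.7, 73.4 and 79.1 CPM with vehicle and at 71.6, 68.7 and 70.3 CPM with Dex, with no overlap (log2 -0.13 ± 0.11, edgeR adjusted p = 0.559). Without the 5 libraries the change was -0.14 and was called (adjusted p = 0.00466), as it was with only the groups compared (adjusted p = 0.00268). The same 2 settings called a wild-type LPS change of 0.09 (adjusted p = 0.0488 and 0.0288).

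**Figure D5:**
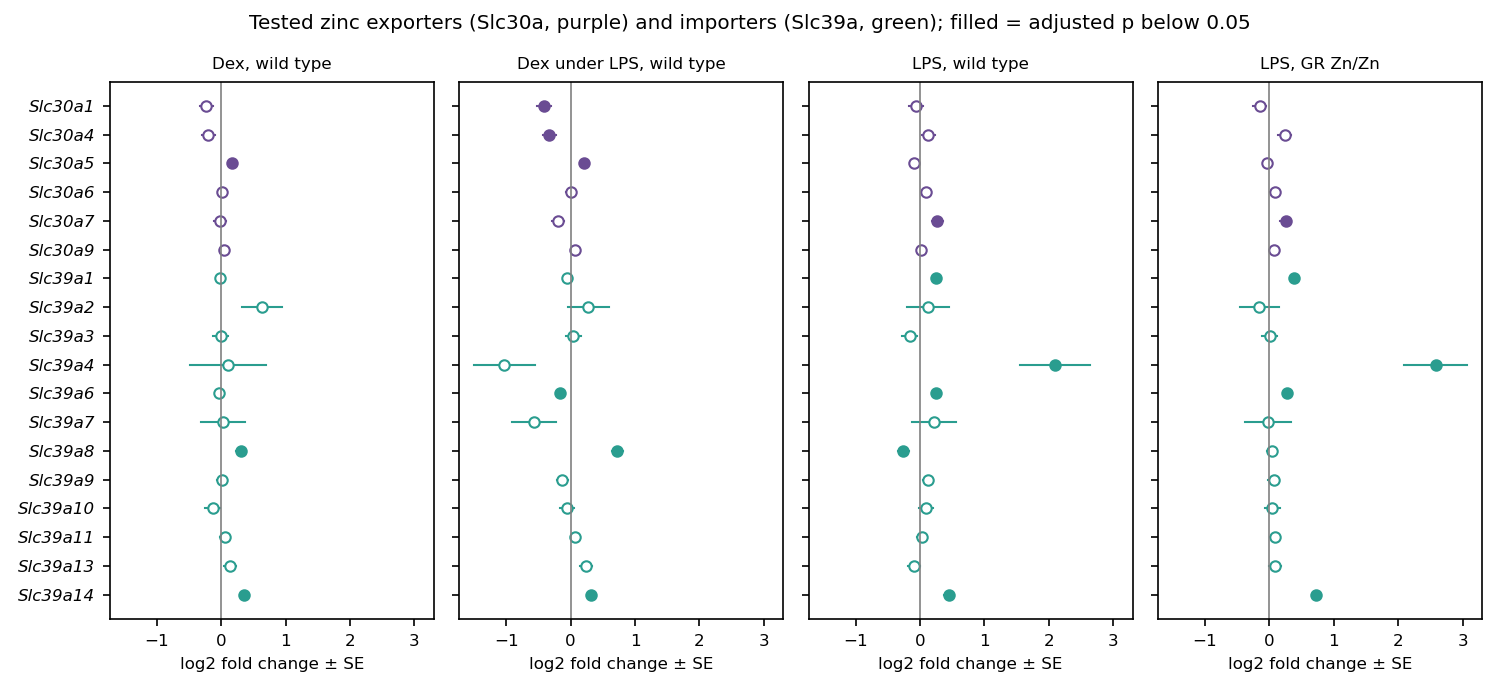
Log2 fold changes of the tested zinc exporters and zinc importers with SE, in panels for Dex, Dex under LPS and LPS in wild type and for LPS in the mutant (x axis), with filled points for called genes. For Dex under LPS in wild type, Slc39a8 and Slc39a14 are the called importers above 0, at 0.73 and 0.32, and for LPS in wild type Slc39a4 lies at 2.09 and Slc39a8 at -0.26. The wild-type vehicle mean of Slc39a4 was 0.113 CPM, within what a count of 0 allows.

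The other zinc transporters were counted by family in wild type, beside the share of all genes called: 13.2% for Dex, 21.0% for Dex under LPS and 26.4% for LPS. Of 10 exporters 6 were tested. Dex raised 1, Slc30a5 (0.16 ± 0.05), and the list's median was 0.00 as was that of all genes. Under LPS, Dex raised Slc30a5 (0.21) and lowered Slc30a1 and Slc30a4 (-0.34), with a list median of -0.10 beside 0.01. LPS raised 1 exporter, Slc30a7 (0.27), with a list median of 0.06 beside -0.01. Of 14 importers 12 were tested. Dex raised 2 and lowered 0: Slc39a14, and Slc39a8 (ZIP8), its closest relative, by 0.31 ± 0.08 (edgeR adjusted p = 0.0101), with a list median of 0.04. Under LPS, Dex raised Slc39a8 by 0.73 ± 0.08 (adjusted p = 3.54e-07) and Slc39a14, and lowered Slc39a6 (-0.16), with a list median of -0.01 beside 0.01.

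Slc39a8 was at 6.94 ± 0.18 CPM (SD, n = 3) with LPS and 11.5 ± 1.0 CPM with Dex and LPS in wild type, against 7.53 ± 0.30 and 8.33 ± 0.76 CPM in the mutant. Its genotype difference of Dex under LPS was -0.58 ± 0.11 (edgeR adjusted p = 0.00125). That of Dex alone was -0.22 ± 0.11 (adjusted p = 0.364). LPS raised 4 importers in wild type: Slc39a4 (2.09, from 0.113 to 0.746 CPM), Slc39a14, Slc39a6 (0.26) and Slc39a1 (0.24). Slc39a4 had at most 40 reads in a library. Its vehicle mean lies within the 0.0518 to 0.159 CPM that a count of 0 allows, so the size of its change is uncertain. The list median was 0.12 beside -0.01. LPS lowered 1, Slc39a8 (-0.26), so that in wild type ZIP14 and ZIP8 RNA went in opposite directions with LPS and in the same direction with Dex. Mutant Slc39a8 was at 7.32 ± 0.094 CPM with vehicle and 7.53 ± 0.30 CPM with LPS, and this change was not called. In the mutant LPS raised Slc30a7 and 4 importers, Slc39a1, Slc39a4, Slc39a6 and Slc39a14. The calls of Slc30a5 with Dex, of Slc30a4 with Dex under LPS, and of Slc30a7 and Slc39a8 with LPS were each lost in 6 to 9 of 14 alternative settings. In the mutant Dex called none of these transporters, with or without LPS, by edgeR or DESeq2, and 1 importer each time had an unadjusted p below 0.05.

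Genes of copper and iron handling, the other metals bound or moved by these proteins, included larger changes. All 18 were tested, and Dex in wild type raised 4 and lowered 2, with a median of 0.04 beside 0.00 for all genes, of which 7.92% rose and 5.24% fell. Cp, the copper-carrying ferroxidase ceruloplasmin, went from 8.62 ± 0.19 to 19.1 ± 1.7 CPM (log2 1.14 ± 0.18, edgeR adjusted p = 7.95e-05). Slc31a2, a copper transporter, rose by 0.51, Fth1, the ferritin heavy chain, by 0.47 and Aco1, an iron-sensing RNA-binding protein, by 0.19. Slc40a1, the iron exporter ferroportin, had a log2 change of -1.08 ± 0.16 (adjusted p = 3.25e-05), and Steap3, a ferrireductase, one of -0.36. Dex under LPS raised Cp (1.13), Fth1 (0.57) and Slc31a2 (0.55) and lowered Tfrc (-0.33), the transferrin receptor, and Slc11a2 (-0.16), beside 10.5% of all genes raised and 10.6% lowered. The Slc11a2 call was lost in 7 of 14 alternative settings, with adjusted p up to 0.188, and those of Tfrc under LPS and of Steap3 with Dex in 2 each. LPS raised 5 and lowered 2 in wild type, beside 14.0% and 12.4% of all genes, with Steap4, a metalloreductase, rising from 0.378 to 65.3 CPM, and Slc11a2, an importer of iron, rising by 1.54. The genotype difference of the Dex response was called for 4 of the 18: Cp (-1.58, adjusted p = 0.000805), Slc40a1 (0.99, adjusted p = 0.00454), Steap3 (0.59, adjusted p = 0.00549) and Slc31a2 (-0.45, adjusted p = 0.0178), beside 6.99% of all genes.

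Oxidative stress genes of the NRF2 pathway, which also respond to metals, included more genes that Dex lowered than raised. Of 12 tested, Dex in wild type raised 1 and lowered 4, and Dex under LPS raised 1 and lowered 9, with medians of -0.08 and -0.34 beside 0.00 and 0.01 for all genes. Of all genes 5.24% fell with Dex and 10.6% with Dex under LPS. Of the 4 that fell with Dex, the call of Nfe2l2 was lost in 9 of 14 alternative settings and that of Hmox1 in 2. The one that rose both times was Gclc, the catalytic subunit of the first enzyme of glutathione synthesis, from 45.02 ± 1.4 to 110.2 ± 1.3 CPM with Dex (log2 1.29 ± 0.07, edgeR adjusted p = 4.22e-12). Hmox1, which encodes heme oxygenase, had -0.25 with Dex and -0.70 with Dex under LPS, Txnrd1 had -0.25 and -0.51, and Srxn1 had -0.23 and -0.51. LPS raised 7 of the 12 in wild type and lowered 0, beside 14.0% of all genes raised, among them Slc7a11 (1.87), Hmox1 (1.03) and Nfe2l2 (0.97), the gene of NRF2 itself. In the mutant Dex called none of these 12, nor of the 18 copper and iron genes, with or without LPS, by edgeR or DESeq2. At an unadjusted p below 0.05 there were 1 and 2 of them with Dex alone and 1 and 1 under LPS.

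By the Pearson correlation of log2 CPM over the 24 libraries, the genes most like each of the 6 were listed as a description. These libraries share groups, depth and the deviations named above. For Mt1 they were Ccn1 (0.973), Fibin (0.968) and Adm (0.957), and for Mt2 Sik1 (0.980), Slc10a6 (0.976) and Ampd3 (0.971). For Slc39a14 they were Akap1 (0.978), Ctsc (0.969) and Irak3 (0.966). For Slc39a10 they were Hspa4l (0.910), Atp7a (0.908) and Itgav (0.890). Those for Mtf1 included Zeb1 (0.940) and Fosl2 (0.936), and those for Slc30a1 included Lrrtm2 (0.841) and Dgcr8 (0.831).

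The authors' deposited table of 12588 genes holds all 6. For Dex in wild type the authors' deposited table gives log2 changes of 3.44 for Mt2 (adjusted p = 9.79e-61), 2.02 for Mt1 (7.80e-18) and 0.35 for Slc39a14 (6.71e-06). For Dex under LPS in wild type the authors' deposited table gives 2.61, 2.25 and 0.32 for these, -0.25 for Mtf1 (adjusted p = 0.0187) and -0.42 for Slc30a1 (adjusted p = 0.00305). In the mutant the authors' deposited table has none of the 6 at an adjusted p below 0.05.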

How the data were processed

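The members and gene lists were chosen with earlier results of these data known. Poly(A) RNA went into a stranded library kit, per the labels' protocols. The deposited read counts per gene are STAR output (versions 2.4.2 and 2.4.2a and genome build mm10, per the submitters' processing notes). The counts of the strand opposite to the read were used as deposited, and 2.70 to 2.91% of stranded reads lay on the other strand. Rows without a gene were kept out of totals and tests. They held unmapped reads (2.92 to 5.58%), reads with several positions (3.74 to 5.79%), reads outside features (3.10 to 4.72%) and ambiguous reads (1.18 to 1.41%). The authors' deposited tables also give log2 fold changes and adjusted p-values. Another 96 columns with per-sample values went unused.

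edgeR 4.0.16 (R 4.3.3) fitted all 24 libraries in 1 robust quasi-likelihood model with 1 coefficient per group, TMM scaling, its default filter by group and a prior count of 2, tested on simulated data. There were 11 comparisons, and adjusted p-values run over 15221 genes. A count of 0 allows 3 reads, 0.0518 to 0.159 CPM, for counting error only. Alternatives were other size factors, no filter, unstranded counts, a replicate term, only the groups compared, DESeq2 1.42.0, and fits without single or named libraries. Positions and lengths came from GENCODE vM21 on GRCm38 (also called mm10), and promoters from RefSeq. In each further list, up to 5 called genes with the largest change per comparison are named, and for likeness the 3 genes with the highest correlation, of which 1 each for Mtf1 and Slc30a1 is not reported here. Same-numbered replicates correlated in their deviations from the group means by -0.371 to 0.348. With 3 libraries per group this cannot show whether the numbers pair the samples, and the main fit used no pairing.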

Additional observations from a re-analysis of the deposited data

Results flagged for a closer look

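For 3 of the 6 genes the effect of Dex differed between wild-type and GR Zn/Zn cells in edgeR's test of the difference itself, both without and with LPS. For Mt2 the mutant's log2 change was lower by 3.21 with Dex alone (difference -3.21) and by 2.51 under LPS (difference -2.51). For Mt1 the differences were -1.65 and -2.21. For Slc39a14 they were -0.31 and -0.31, and these were lost when single libraries were left out, at adjusted p up to 0.102 and 0.113.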

How the results depend on the processing

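Of 1068 values of the 66 member fold changes under alternatives, 1022 kept their side of the threshold. Another 32 fell short of it, 14 passed it and 0 called values reversed. Among the 1022, 41 values without a call changed sign. With only the groups compared in the fit, genes called went from 2003 to 4659 for Dex in wild type (members 3 to 5), from 1064 to 1659 for its genotype difference, from 3198 to 1544 for Dex under LPS in wild type (members 5 to 3), from 1581 to 1042 for that genotype difference, from 1 to 0 for Dex under LPS in the mutant, from 4020 to 6847 for LPS in wild type (members 3 to 5) and from 82 to 146 for the genotype difference of LPS (members 0 to 1). Without the 5 libraries that stood apart these counts were 4330 (members 5), 2191, 2970 for the genotype difference of Dex under LPS, 160 for Dex under LPS in the mutant, 6676 (members 5), 405 (members 1), 5 for Dex in the mutant (0 in the full set), 4620 for genotype in vehicle (2861 in the full set, members 0 to 1) and 781 for the interaction of Dex and LPS (238 in the full set, members 0 to 1). Without the 3 later-numbered libraries there were 1 for Dex in the mutant, 5052 for Dex under LPS in wild type, 0 for it in the mutant and 387 for the interaction. DESeq2 gave 3 for Dex in the mutant, 28 for Dex under LPS in the mutant and 140 for the genotype difference of LPS. Without the filter on low counts, 6 were called for Dex under LPS in the mutant. The fits with fewer groups or libraries estimate the spread from other samples, and beyond this the cause was not tested.

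The replicate block gave 12 genes for Dex under LPS in the mutant in place of 1 and moved no other count of genes or members by over 1.5 times. Leaving out 1 library at a time gave 1525 to 1627 genes for Dex in wild type (members 3 to 3), 0 to 0 for Dex in the mutant, 867 to 1013 for its genotype difference (members 2 to 2), 2423 to 4418 for Dex under LPS in wild type (members 3 to 5), 0 to 27 for it in the mutant, 1261 to 1935 for that genotype difference (members 2 to 3), 3216 to 3339 for LPS in wild type, 4662 to 5303 in the mutant, 34 to 79 for the genotype difference of LPS, 2238 to 2601 for genotype in vehicle and 164 to 279 for the interaction (members 0 to 1). The 27 came without mutant Dex with LPS replicate 2, and the 34 without mutant vehicle replicate 1. The 3 members for Dex under LPS in wild type came without wild-type LPS replicate 1, and the 1 member for the interaction, Mt2, without wild type Dex with LPS replicate 1. Depth limits Mt3 and Mt4, which had too few reads for a test.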
